A study of Homo sapiens with 6 samples.

Results

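Toll-like receptors, the co-receptors CD14 and LY96, the adaptor MYD88 and the sensors NLRP3 and NLRP12 were followed in MV4-11 cells, a human monocytic leukemia line that carries the KMT2A-AFF1 fusion and an internal tandem duplication of FLT3. These 10 genes were taken by symbol from a count table of 20263 genes, and all 10 were found. NLRP12 and TLR4 had been picked because their levels differed in opposite directions between the drug combination and venetoclax, so their values are given as a description, with no test. The other 8 members were listed by function. That list was made with earlier results of these data known, so its p-values are not free of that choice.

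All groups were the same cell line at 24 h, with 2 libraries each. The single agents were venetoclax at 100 nM, which blocks the anti-apoptotic protein BCL2, and CSA at 2.5 µM. CSA is the usual abbreviation of cyclosporine A, a calcineurin inhibitor, which the labels do not spell out. The third group received both drugs, at doses that the labels do not state separately. The labels place no untreated cells among the 6 libraries used, so each level is relative to another treatment, and nothing in them says that the 2 libraries of a group came from separate cultures. P-values therefore measure only the spread between these libraries, which may be technical.

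Toll-like receptors sense microbial products. At the cell surface TLR2 pairs with TLR1 or TLR6 to bind bacterial lipopeptides, and TLR4 binds lipopolysaccharide through LY96 (MD-2), to which CD14 delivers it. TLR8 detects single-stranded RNA in endosomes. All of these use MYD88 to activate NF-kB. NLRP3 assembles the inflammasome, which activates caspase-1 and interleukin-1β, while NLRP12 is a related sensor described mainly as a brake on NF-kB signalling. Monocytic cells usually express most of this set.

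Total counts were 26567900 to 30738957 per library. Venetoclax replicate 2 stood apart: 41.5% of its counts fell on mitochondrially encoded genes, and 7.41% to 15.2% of those of the other libraries, so values are also given without it where they move. Of 10 genes listed for the line, FLT3, CD33, HOXA9, HOXA10, MEIS1, PBX3 and MEF2C had 249 counts or more in every library and MPO 170 to 275. KIT had 11 to 40 counts, and CD34 had 3 counts in 1 library and 0 in the rest. T cell markers CD3D, CD3E, CD3G and CD2 and the B cell marker EBF1 had 0 counts in all 6 libraries.

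The sequence before NLRP12 is shown because this gene and TLR4 are the pair that differed in opposite directions. RefSeq (GRCh38.p14) gave entries for 8 of the 10 members, and the 250 bases before each start were searched on both strands for 7 motifs: GAGGAA (PU.1 and other ETS factors), TTGCNNAA (C/EBP), TGANTCA (AP-1), TGATGNAA (ATF4 with C/EBP), an NF-kB motif, GGAAAA (NFAT) and TTCNNNGAA (STAT). Capitals mark the matched letters. NLRP12 lies on the minus strand of chromosome 19, and the stretch chr19:53824395-53824564 precedes the first annotated base of the gene.
NLRP12 upstream: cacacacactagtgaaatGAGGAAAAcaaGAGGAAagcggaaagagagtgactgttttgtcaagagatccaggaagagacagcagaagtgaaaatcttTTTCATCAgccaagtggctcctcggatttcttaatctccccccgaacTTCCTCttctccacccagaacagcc
This stretch holds GAGGAA 3 times (TTCCTC is the same motif on the other strand), GGAAAA once, overlapping the first of them, and TGATGNAA on the other strand, 152 bases before the RefSeq start. The full window holds GAGGAA 4 times and TTGCNNAA once.

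TLR4 lies on the plus strand of chromosome 9, and its window also holds GAGGAA 4 times and none of the other motifs. Each match is shown with its flanks, 224, 171, 99 and 40 bases before the RefSeq start, at chr9:117704172-117704191, chr9:117704225-117704244, chr9:117704297-117704316 and chr9:117704356-117704375. The GENCODE gene model begins earlier than RefSeq's, so these letters lie within or at the edge of that model.
TLR4 site 1: aactagcTTCCTCttgctgt
TLR4 site 2: ttctaacTTCCTCtcctgtg
TLR4 site 3: ctttcacTTCCTCtcaccct
TLR4 site 4: gcggctcGAGGAAgagaaga
The window of MYD88 (chromosome 3, plus strand) holds TTCNNNGAA 67 bases and GAGGAA 18 bases before the start, also within the GENCODE gene model, at chr3:38138589-38138607 and chr3:38138636-38138655.
MYD88 site 1: ggcgcTTCTCGGAAagcga
MYD88 site 2: ggagaaaGAGGAAgcgctgg
Among 35116 windows of this length, 23.6% held GAGGAA, 21.2% GGAAAA, 9.05% TTGCNNAA, 6.57% TTCNNNGAA, 6.57% TGANTCA, 3.14% TGATGNAA and 0.527% the NF-kB motif. The NF-kB motif was in none of the 8 members' windows. These shares count windows with any match, however many. GAGGAA was also found in the windows of TLR6, CD14 and NLRP3, with 1 match each, so it is not particular to NLRP12 and TLR4. TGATGNAA was also found in the window of NLRP3, 80 bases before its start. GGAAAA was also in the windows of TLR8 and NLRP3, TTGCNNAA in that of TLR8, and TGANTCA and TTCNNNGAA in that of CD14. A match describes the letters only and is not evidence of binding.

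Levels between genes were compared as CPM (counts relative to library size, scaled by the trimmed mean of M-values) per kilobase of annotated exon. TLR2 had the highest level of the members in every group, with 24.1 and 26.2 CPM per kb under venetoclax, 22.8 and 24.3 under CSA, and 25.2 and 26.9 under the combination. MYD88 and NLRP3 came next. Their ranges overlapped under venetoclax (means of 13.4 and 9.80) and under the combination (10.7 and 10.1), but not under CSA, where NLRP3 was at 11.7 to 12.2 and MYD88 at 2.94 to 3.74. TLR4 had group means of 1.97, 1.36 and 0.903 CPM per kb under venetoclax, CSA and the combination, and TLR1 of 0.915, 0.505 and 0.423. TLR6, CD14 and TLR8 stayed at or under 0.268 CPM per kb in every library, and TLR6 and CD14 overlapped in every group. NLRP12 stood below TLR4 and TLR1 under venetoclax (0.308) and above both under CSA (1.45) and the combination (2.15). LY96 had the lowest mean under venetoclax (0.0874, overlapping TLR8) and a mean above TLR4 under the combination (1.26 against 0.903). The orders against TLR4 depend on the exon lengths used, 13272 bases for TLR4, 5088 for NLRP12 and 607 for LY96. Which transcripts were expressed was not determined. In CPM without division by length, TLR4 lay above NLRP12 and LY96 in every library. Under CSA TLR4 was at 17.8 and 18.2 CPM, and NLRP12 at 7.17 and 7.53.

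**Figure D1:**
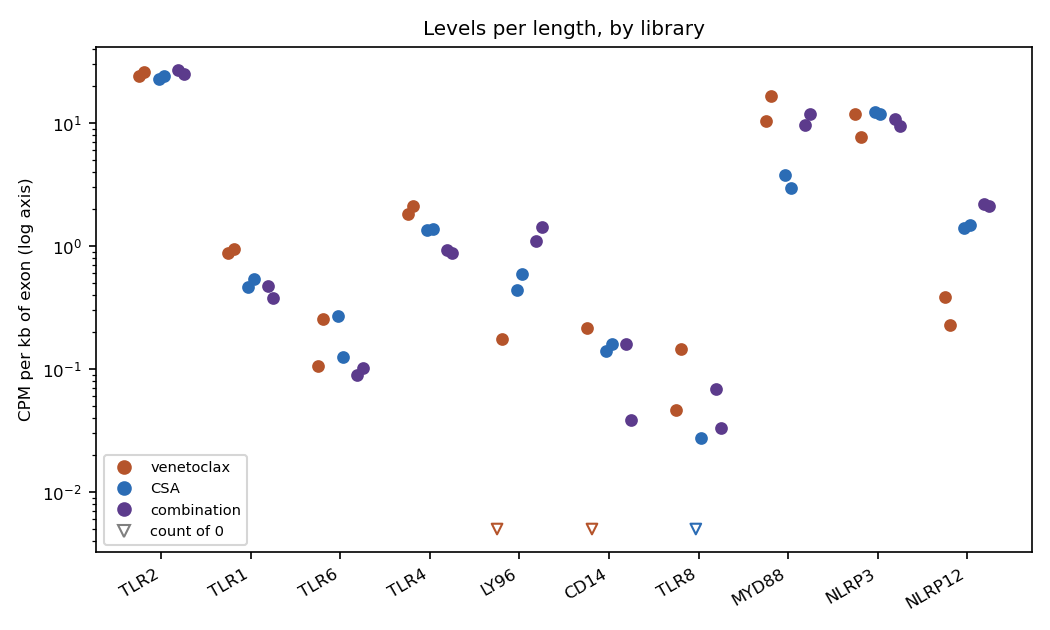
Level of the 10 members in CPM per kilobase of exon on a log axis, 1 point per library, coloured by treatment; open triangles at the bottom mark counts of 0. TLR2 is at 22.8 or more in each library, and TLR6, CD14 and TLR8 at 0.268 or less.

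The lipopeptide receptors were dominated by TLR2. TLR2 was at 126 and 136 CPM under venetoclax, 119 and 127 under CSA, and 141 and 131 under both drugs. The venetoclax range overlapped both others. The combination lay above CSA by a log2 fold change of 0.15 (SE 0.15), which did not pass (edgeR quasi-likelihood test with Benjamini-Hochberg adjustment, adjusted p = 1.000). Venetoclax against CSA gave 0.09 (SE 0.15, adjusted p = 0.772 by the same test).

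TLR1, a partner of TLR2, was at 4.00 and 4.30 CPM under venetoclax, 2.12 and 2.46 under CSA, and 2.13 and 1.71 under both drugs. Both venetoclax libraries were above the other 4, which overlapped each other. The log2 fold change of venetoclax against CSA was 0.85 (SE 0.25, edgeR adjusted p = 0.633), and 0.80 without venetoclax replicate 2. That of the combination against CSA was −0.25 (SE 0.25, edgeR adjusted p = 1.000). Against venetoclax the combination was at −1.11 (SE 0.25), given as a description, since this contrast chose 2 of the members.

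TLR6, the other partner, was at 0.644 and 1.54 CPM under venetoclax, 1.62 and 0.750 under CSA, and 0.540 and 0.618 under both drugs. These are 17 to 49 counts per library. The combination libraries were the lowest, below CSA by 1.03 on the log2 scale (log2 fold change −1.03, SE 0.60, edgeR adjusted p = 1.000), while the single agents overlapped. Against venetoclax the log2 fold change was −0.88 (SE 0.61) with all libraries and −0.15 without venetoclax replicate 2. TLR1 and TLR6 lie next to each other on chromosome 4, share 57 bases of exon, and their longest coding transcripts share an identical run of 218 bases; 69 of 2700 read-length windows of TLR1 (150 bases) occur in TLR6. The sources used here do not say how such reads were assigned, so a small part of each count is uncertain. Per kilobase, TLR2 exceeded TLR1 by 27.3-fold and 27.6-fold under venetoclax, 49.0-fold and 44.7-fold under CSA, and 57.4-fold and 66.8-fold under both drugs.

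TLR4, the lipopolysaccharide receptor (chromosome 9, 117704175 to 117724730, GRCh38), was at 24.3 and 28.1 CPM under venetoclax, 17.8 and 18.2 under CSA, and 12.3 and 11.6 under both drugs. The 3 groups did not overlap, under venetoclax highest and the combination lowest. As a description, the fitted level under the combination was 0.458 times that under venetoclax (log2 fold change −1.13, SE 0.18) and 0.666 times that under CSA (−0.59, SE 0.18). Venetoclax was 1.46-fold above CSA (log2 fold change 0.54, SE 0.18). Without venetoclax replicate 2 these log2 fold changes were −1.02, −0.59 and 0.43.

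LY96, which TLR4 needs to bind lipopolysaccharide, ran the other way at a low level. It had 0 and 2 counts under venetoclax, 8 and 12 under CSA, and 22 and 24 under both drugs, or 0 and 0.106, 0.264 and 0.360, and 0.660 and 0.872 CPM. The 3 groups did not overlap, in the reverse order of TLR4. The 0 in venetoclax replicate 1 allows up to 0.102 CPM (3 counts). Summed over libraries and scaled for depth, the combination was 2.40-fold above CSA (95% exact interval 1.39 to 4.29) and 18.3-fold above venetoclax (4.78 to 155). All its counts were even, as were all those of CD14 and TLR8. If 2 counts stand for 1 fragment, the intervals widen to 1.10 to 5.66 and 2.97 to 753. They cover counting error only. The edgeR adjusted p was 1.000 for the combination against CSA and 0.633 for venetoclax against CSA. LY96 passed the filter on low counts only through the libraries in which it was higher. Its p-values and intervals are therefore given as a description, and nothing is concluded from them. Per kilobase, the ratio of LY96 to TLR4 was 0 and 0.0825 under venetoclax, 0.325 and 0.433 under CSA, and 1.17 and 1.64 under both drugs.

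CD14, the lipopolysaccharide carrier and a marker of mature monocytes, was near 0. It had 12 and 0 counts under venetoclax, 8 and 10 under CSA, and 10 and 2 under both drugs, at most 0.407 CPM. The groups overlapped and no difference was detectable at this depth: the combination stood at 0.697 times CSA (95% exact interval 0.306 to 1.53). TLR8 had 6 and 12, 0 and 4, and 10 and 4 counts in the same order. Scaled for depth, the CSA libraries were the lowest, at 0 and 0.120 CPM beside 0.145 CPM in the nearest combination library, although that library also had 4 counts. The ratio of CSA to venetoclax was 0.169 (95% exact interval 0.0416 to 0.513, or 0.0178 to 0.817 if 2 counts stand for 1 fragment). These intervals cover counting error only. Of the venetoclax counts of TLR8, 12 came from replicate 2, the library that stood apart, and replicate 1 was at 0.203 CPM. Neither gene passed the filter on low counts, so neither entered the test. In these bulk libraries fewer cells with a transcript and less of it per cell cannot be told apart.

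MYD88, the adaptor shared by these receptors (chromosome 3, 38138478 to 38143022, GRCh38), set the CSA libraries apart. It was at 41.0 and 65.7 CPM under venetoclax, 14.9 and 11.7 under CSA, and 38.1 and 47.5 under both drugs. Both CSA libraries lay below the other 4, and the venetoclax and combination ranges overlapped. Of all 12690 genes tested, 6.18% had CSA below the other 4 libraries. MYD88 under the combination was 3.21-fold above CSA (log2 fold change 1.68, SE 0.29), and under venetoclax 4.00-fold above CSA (2.00, SE 0.30). Only 0.827% and 0.804% of genes had a larger absolute change in these comparisons.

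Neither MYD88 difference passed with all 6 libraries in edgeR's quasi-likelihood test (adjusted p = 0.620 and 0.489). This test called 0% of the 12690 genes in each comparison, with 462 and 609 genes at an unadjusted p under 0.05, and so could set no gene apart. DESeq2, which called 0.425% and 0.467% of genes, gave MYD88 adjusted p = 0.000157 and 1.44e-06. Without venetoclax replicate 2, edgeR called 0.185% and 0% of genes and DESeq2 2.01% and 0.714%. In that fit the MYD88 log2 fold changes were 1.68 and 1.61 (edgeR adjusted p = 0.0849 and 0.193). Over 17 other settings the first ranged from 1.51 to 1.86 and the second from 1.60 to 2.30, with adjusted p from 1.62e-11 to 1.000 and from 1.44e-06 to 0.984. In edgeR the second passed without venetoclax replicate 1 (adjusted p = 0.0165), a fit that called 33.8% of all genes. That fit keeps only the venetoclax library with 41.5% mitochondrial counts, which is assumed to vary like the libraries of the other groups. The combination differed from venetoclax by −0.32 (SE 0.28), by 0.06 without venetoclax replicate 2 and by 0.03 when scaled by library size alone. The GENCODE models of MYD88 overlap no other gene.

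**Figure D2:**
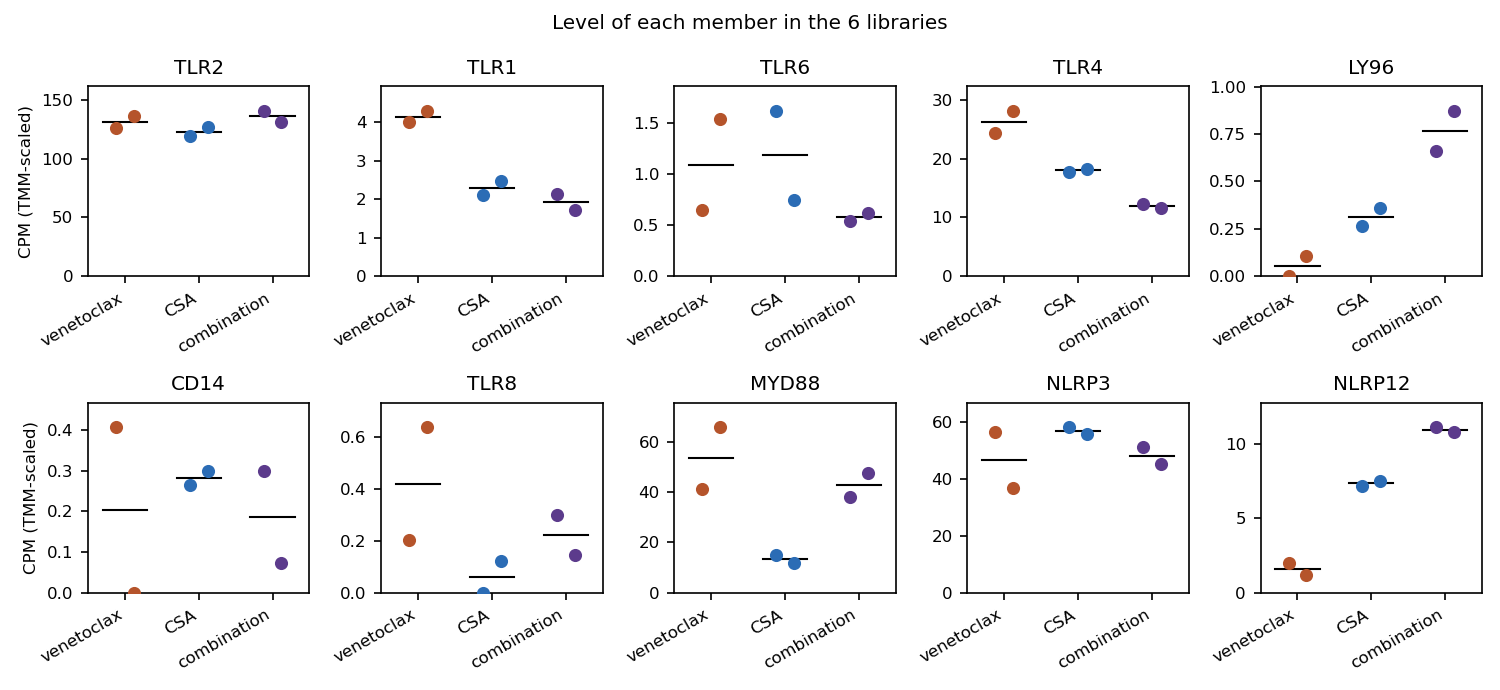
CPM of each member in the 6 libraries, on a linear axis from 0 for each gene; points are libraries and bars the mean of 2. TLR4 steps down and NLRP12 and LY96 step up from venetoclax to CSA to the combination, and MYD88 is lowest in both CSA libraries.

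NLRP3, the inflammasome sensor (chromosome 1, 247416156 to 247449108, GRCh38), was at 56.5 and 36.8 CPM under venetoclax, 58.2 and 55.9 under CSA, and 51.1 and 45.2 under both drugs. The venetoclax range overlapped both others, and its replicate 2 was the lowest of the 6 libraries. The combination lay below CSA by a log2 fold change of −0.24 (SE 0.24, edgeR adjusted p = 1.000). Venetoclax against CSA gave −0.29 (SE 0.24, edgeR adjusted p = 0.639), and −0.02 without venetoclax replicate 2. With only that replicate kept for venetoclax the value was −0.64 (edgeR adjusted p = 0.0269; 0.0269 to 1.000 over 17 settings), in the fit that called 33.8% of all genes.

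NLRP12 (chromosome 19, 53793603 to 53824394, GRCh38) was at 1.97 and 1.17 CPM under venetoclax, 7.17 and 7.53 under CSA, and 11.1 and 10.8 under both drugs. These are 58 and 22, 217 and 251, and 371 and 297 counts. The 3 groups did not overlap, in the same order as LY96. As a description, the fitted level under the combination was 6.88-fold that under venetoclax (log2 fold change 2.78, SE 0.29) and 1.49-fold that under CSA (0.58, SE 0.26). Venetoclax against CSA was at −2.21 (SE 0.29). Without venetoclax replicate 2 the values were 2.48, 0.57 and −1.91. The ratio of NLRP12 to NLRP3 per kilobase was 0.0325 and 0.0297 under venetoclax, 0.115 and 0.126 under CSA, and 0.204 and 0.223 under both drugs.

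**Figure D3:**
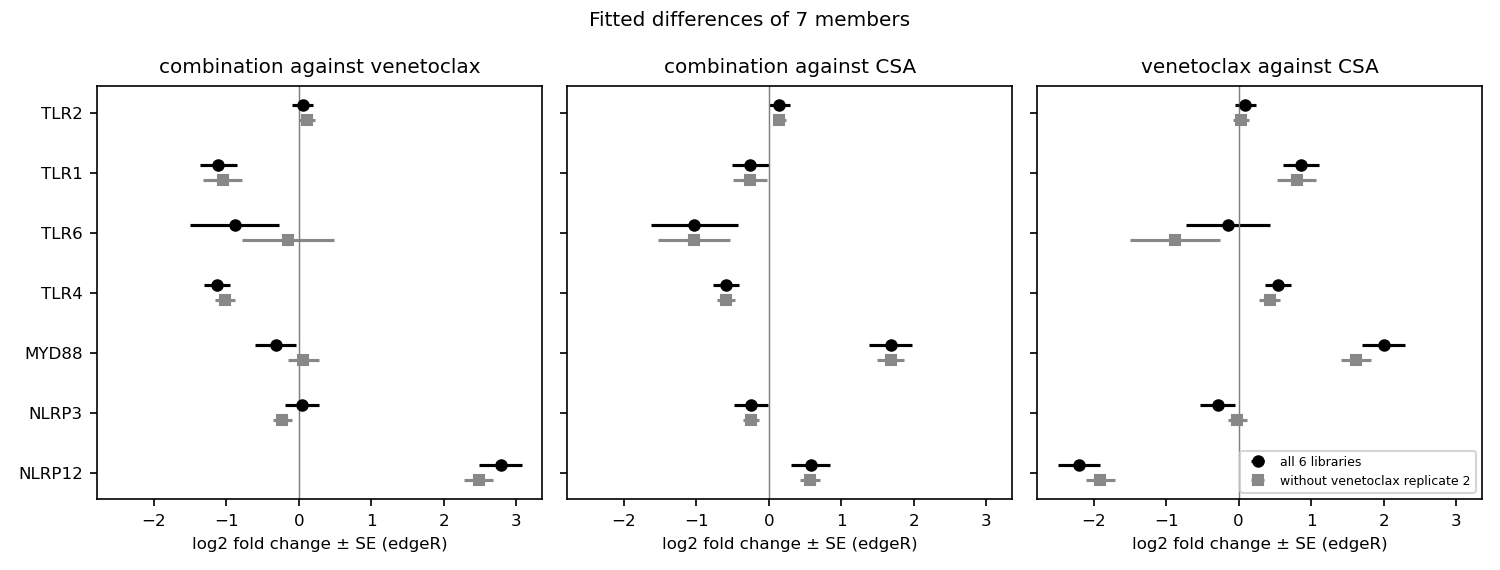
Log2 fold changes with SE from edgeR for the 7 members with at least 17 counts in every library, in the 3 comparisons, with all 6 libraries (circles) and without venetoclax replicate 2 (squares). MYD88 lies at 1.61 to 2.00 in venetoclax against CSA, and NLRP12 and TLR4 lie on opposite sides of 0 in every panel.

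Among the 8 members not picked by value, the combination lay wholly above CSA in 4 (TLR2, TLR8, LY96 and MYD88) and wholly below it in 2 (TLR6 and NLRP3). Over all genes tested these shares were 23.5% and 23.7%. TLR8 and CD14 did not pass the filter and are not among the genes tested, so the sets compared here differ. TLR8 and LY96 rest on low counts, at most 12 and 24 in any library. Venetoclax lay wholly above CSA in 3 (TLR1, TLR8 and MYD88) and below it in 1 (LY96), against 20.8% and 19.9% of genes. The combination lay above venetoclax in 1 (LY96) and below it in 2 (TLR1 and TLR6), against 19.2% and 18.9% of genes. By edgeR 0 of the 6 tested passed in the combination against CSA or in venetoclax against CSA, where it called 0% of all genes. By DESeq2 1 passed in each, MYD88, where it called 0.425% and 0.467% of all genes. At an unadjusted p under 0.05 edgeR held MYD88 in the combination against CSA, as it did 3.64% of all genes, and TLR1 and MYD88 in venetoclax against CSA, as it did 4.8% of all genes. LY96 is left out of these counts at an unadjusted p, since it entered the test only through the groups in which it was higher. It is included among the 6 tested and in the counts of groups that did not overlap, where it is a description only.

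The levels of NLRP12 and TLR4 over the 6 libraries were set beside those of 3596 genes with a mean of at least 1 CPM and a log2 range of at least 1. The genes most like NLRP12 were SESN2, a stress-induced inhibitor of mTOR complex 1 (Pearson r = 0.997), PAPPA2, a secreted protease (0.997), and ADM2, a peptide hormone (0.996), and 185 genes had r above 0.9. SESN2 was at 7.79 and 5.25 CPM under venetoclax, 19.1 and 19.9 under CSA, and 25.7 and 22.6 under both drugs. ADM2 was at 4.98 and 3.29, 18.3 and 16.3, and 28.5 and 28.4 CPM.

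The genes most like TLR4 were AK4, a mitochondrial adenylate kinase (r = 0.996), PIK3CG, the catalytic subunit of phosphoinositide 3-kinase gamma (0.995), and ANXA1, annexin A1 (0.995), and 101 genes had r above 0.9. PIK3CG was at 53.5 and 62.7 CPM under venetoclax, 41.8 and 42.3 under CSA, and 27.5 and 24.6 under both drugs. All correlations share the same 6 libraries and the same 3 groups and are given as a description.

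**Figure D4:**
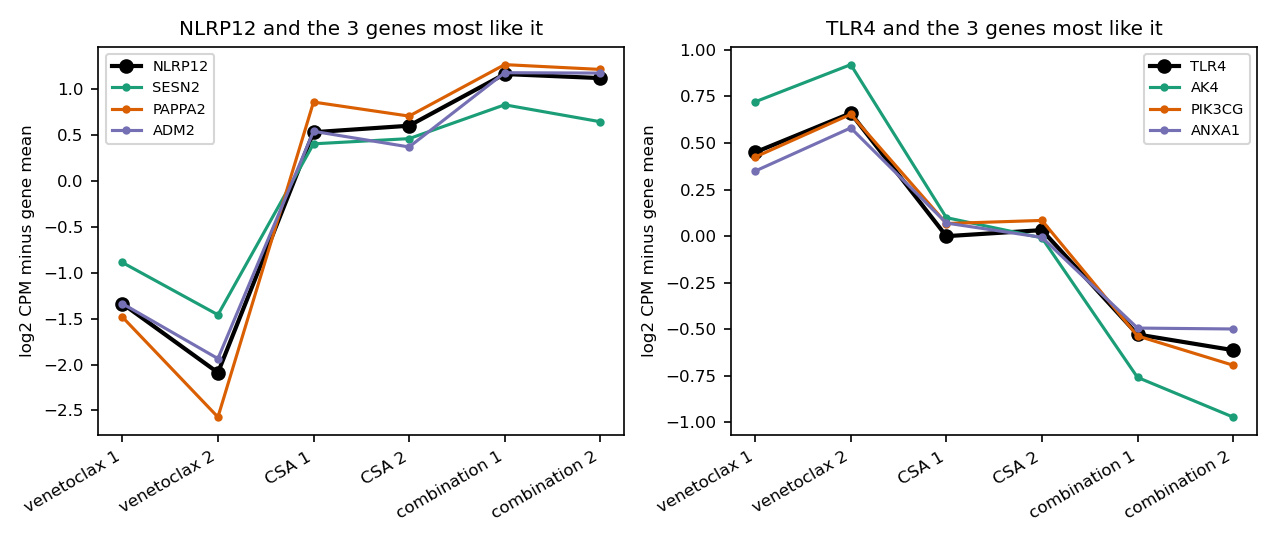
Log2 CPM minus each gene's mean over the 6 libraries for NLRP12 (left) and TLR4 (right) in black, each with the 3 genes of highest Pearson correlation. NLRP12 and its 3 genes are lowest under venetoclax, and TLR4 and its 3 genes are lowest under both drugs.

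Other genes of the pathway were read from 4 lists chosen by function, also with earlier results of these data known. The lists held 81 genes, of which 63 passed the filter. Over these 63 the median log2 fold change was 0.03 in the combination against venetoclax, 0.04 in the combination against CSA and 0.03 in venetoclax against CSA, beside −0.01, 0.00 and 0.00 over all genes. By edgeR 0 of the 63 passed in any of the 3 comparisons (0% of all genes), with 7, 1 and 4 at an unadjusted p under 0.05, beside 10.8%, 3.64% and 4.8% of all genes. Without venetoclax replicate 1 edgeR called 26.4% of all genes in the combination against venetoclax. With all 6 libraries DESeq2 called 1 of the pathway genes in the combination against venetoclax, LY86, where it called 2.23% of all genes, and 0 in the others. Without venetoclax replicate 2 edgeR called 0.379% of all genes in that comparison and 0 of the pathway genes, and DESeq2 3.76% and LY86 alone among them.

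Of 7 tested genes among the other Toll-like receptors, co-receptors and chaperones, 5 were higher and 2 lower under the combination than under CSA (median 0.24). LY86 (MD-1), the LY96-like partner of the receptor CD180, was at 11.8 and 12.1 CPM under venetoclax, 16.4 and 15.7 under CSA, and 21.9 and 21.4 under both drugs. The 3 groups did not overlap. Its log2 fold change against venetoclax was 0.86 (SE 0.17, edgeR adjusted p = 0.220, DESeq2 adjusted p = 0.00762), and against CSA 0.43 (SE 0.17, edgeR adjusted p = 1.000). CD180 itself was at 186 and 306 CPM under venetoclax, 184 and 216 under CSA, and 212 and 273 under both drugs, with overlapping groups. CD36, a scavenger receptor that assists TLR2, was above CSA by 0.38 (SE 0.22). TLR3 had 0 counts in all 6 libraries, and TLR5, TLR7 and TLR10 had at most 14. TLR9, a DNA sensor named here after its values were seen, was at 9.05 and 9.18 CPM under venetoclax, above the CSA and combination libraries, whose means were 6.12 (SD 0.595, n = 2) and 5.31 (SD 0.974, n = 2).

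Among 28 adaptors, kinases and brakes, 15 were higher and 13 lower under the combination than under CSA (median 0.04). The genes with the smallest p were MAP3K8, a kinase downstream of the receptors (0.56, SE 0.29), TNFAIP3, the A20 brake on NF-kB (0.22, SE 0.15), and IRF3, a transcription factor of the interferon branch (−0.28, SE 0.23). TNFAIP3 was at 42.8 and 41.8 CPM under venetoclax, 49.2 and 48.7 under CSA, and 55.8 and 58.4 under both drugs. None of these passed edgeR's test. SARM1, an adaptor with a Toll domain chosen after its values were seen, was at 0.678 and 0.690, 1.75 and 1.80, and 2.34 and 1.96 CPM in the same order, with a log2 fold change of −1.37 (SE 0.30, edgeR adjusted p = 0.633) in venetoclax against CSA.

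Of 11 other NOD-like receptors, 3 were higher and 8 lower under the combination than under CSA (median −0.15). NAIP and NLRC4, which form an inflammasome that senses bacterial flagellin, were at 0.32 (SE 0.17) and 0.58 (SE 0.38), and NLRC3, a negative regulator, at −0.26 (SE 0.15). NLRC4 was at 3.05 and 1.80 CPM under venetoclax, 2.94 and 4.92 under CSA, and 5.10 and 6.69 under both drugs. None passed edgeR's test.

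Of 17 inflammasome partners and products, 11 were higher and 6 lower in that comparison (median 0.13). PYCARD (ASC), the adaptor that links NLRP3 to caspase-1, was at 78.8 and 48.1 CPM under venetoclax, 82.5 and 75.3 under CSA, and 63.2 and 57.2 under both drugs. Its log2 fold change in the combination against CSA was −0.39 (SE 0.26), and NEK7, a kinase that binds NLRP3, was at 0.26 (SE 0.18). CARD16, a CARD-only relative of caspase-1, was at 0.32 (SE 0.24). None passed edgeR's test. CASP1 and IL1B, the caspase and cytokine of the pathway, were added after their values were seen. CASP1 was at 32.1 to 38.6 CPM and IL1B at 2.17 to 2.84 CPM over the 6 libraries, and their log2 fold changes in the combination against CSA were 0.03 (SE 0.15) and 0.24 (SE 0.24).

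**Figure D5:**
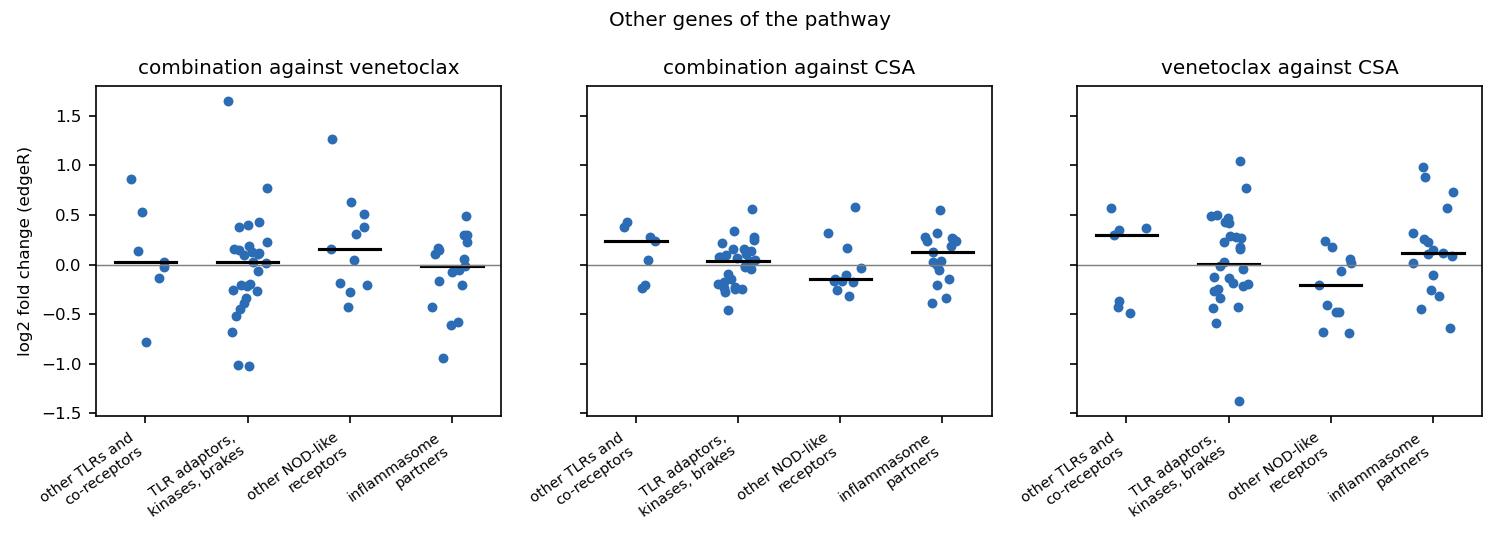
Log2 fold changes (edgeR) of the 63 tested pathway genes in 4 lists, with the list median as a bar, in the 3 comparisons. The medians lie between −0.21 and 0.30.

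Markers of monocytes and macrophages, the lineage of the line, were measured beside these genes. Of 20 listed, 14 passed the filter, and 6 were higher and 8 lower under the combination than under CSA (median −0.05), with 0 passing edgeR's test. The summed level of the 20 was 1321 and 1148 CPM in venetoclax replicates 1 and 2, 1235 to 1293 under CSA and 1157 to 1194 under both drugs. The venetoclax range spanned both others only through replicate 2, the library that stood apart. In this sum venetoclax replicate 1 lay above every other library, and the combination lay wholly below CSA. LYZ was the largest part of each sum, at 572 CPM in venetoclax replicate 1 and at most 463 in any other library. The place of venetoclax replicate 1 therefore rests on LYZ and does not describe the list as a whole. The list was mixed in level. LYZ was at 329 to 572 CPM over the 6 libraries, CD68 at 68.9 to 126, FCGR1A at 49.5 to 81.4 and CSF1R at 33.0 to 54.4. FCGR3A and MRC1 had 0 counts throughout, and CD163 had 2 counts in 1 library. S100A8, VCAN and FCN1 had at most 12 counts in any library. The part of these markers in the values of the members was not tested.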

How the data were processed

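Gene counts of 6 libraries were grouped by title. Per the labels' protocols, RNA was read as 150 bp pairs. The submitters' processing notes name the tools STAR, RSEM and DESeq2 and the build hg38, with no version or role. The authors deposited whole-number gene counts, and 2 columns that match no sample label were left out. In each library 64.8% to 66.7% of counts from 1 to 20 were even, against 49.0% to 51.0% of counts of 100 or more, so low counts may not be independent. Symbols came from a table that matched 20148 of 20263 identifiers, and positions and exon lengths from GENCODE 29 (GRCh38).

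The 12690 genes passing filterByExpr were tested, on the trimmed-mean (TMM) scale, with edgeR 4.0.16 (R 4.3.3, robust quasi-likelihood, two-sided) in 1 fit of 6 libraries with 3 residual degrees of freedom, Benjamini-Hochberg over all genes, threshold 0.05. The edgeR test was also run on simulated counts with the same fixed spread for every gene and no outlying library. Those settings differ from the libraries here, so that check does not cover the spread seen in them. With library sizes unadjusted the all-gene median was 0.26, −0.04 and −0.31, so changes are relative to the trimmed-mean scale.

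Members and lists were chosen with earlier results of these data known. Named pathway genes were any passing in a fit with all libraries or without venetoclax replicate 2, and up to 3 per list with the smallest p in the combination against CSA at a mean of at least 1 CPM. Alternatives were DESeq2 1.42.0, limma-voom (limma 3.58.1), other scalings and filters, halved counts, a replicate block and leaving out each library; DESeq2 without venetoclax replicate 2 was added after seeing the data. Differences between replicates 1 and 2 correlated across genes at 0.19, 0.25 and 0.16 between pairs of groups; the labels state no shared culture or day. No pair of replicates was a duplicate: chi-square divided by its degrees of freedom was 31.1 to 817.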

Additional observations from a re-analysis of the deposited data

How the results depend on the processing

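With all 6 libraries edgeR called 0 genes in each comparison. DESeq2 called 294 genes in the combination against venetoclax, 56 in the combination against CSA and 63 in venetoclax against CSA. With no filter the counts were 15, 4 and 2. DESeq2 without venetoclax replicate 2, chosen after seeing the data, called 448, 227 and 100. Limma-voom called 1 gene in the combination against CSA, and a fit of only those 4 libraries 24. Leaving out each library in turn gave 0 to 3426, 0 to 24 and 0 to 4385 genes, the highest for the first and last without venetoclax replicate 1, and 24 without either venetoclax library. Of the 81 listed pathway genes, DESeq2 called 1 in the combination against venetoclax, with or without venetoclax replicate 2 (LY86 in each), and leaving out each library gave 0 to 22 in both comparisons with venetoclax (TICAM2 among them, which did not pass the filter with all 6 libraries) and 0 to 0 in the other. Of the members not picked by value, DESeq2 called 1 in either comparison with CSA, with or without venetoclax replicate 2 (MYD88 in each), and leaving out each library gave 0 to 0 in the combination against CSA and 0 to 2 in venetoclax against CSA, where MYD88 and NLRP3 passed without venetoclax replicate 1. The cause was not tested.

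The replicate block changed no call: 0 genes, 0 pathway genes and 0 members passed. In venetoclax against CSA, TLR2 turned to −0.24 with library sizes unadjusted, above the all-gene median of −0.31. TLR6 turned to 0.38 without venetoclax replicate 1 and to 0.51 without CSA replicate 1, and ranged from −0.88 (without venetoclax replicate 2) to 0.51 over the libraries left out. The other tested members kept their direction in both comparisons with CSA under every setting run in which they passed the filter. Depth limits LY96, CD14, TLR8 and TLR6, with at most 49 counts in any library.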
